A study of Mus musculus with 12 samples.

Results

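The interferon regulatory factors described here are 8 genes, Irf1, Irf2, Irf3, Irf4, Irf5, Irf7, Irf8 and Irf9, taken by symbol from the 33531 gene symbols in each deposited file. The cells were of the mouse acute myeloid leukaemia line CMM-tetON-shStat3, whose series title places it among leukaemias with the inv(16) rearrangement. They carry GFP, mCherry and a hairpin RNA against Stat3 that the tetON system places under doxycycline. They were grown in NSG mice, a strain that lacks B, T and NK cells of its own, and treatment through the vein started once leukaemia cells made up about 1% of the blood.

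Each of the 4 groups had 3 libraries, and every group held the same line with the same hairpin. The PBS group received buffer and the CpG1668 group a DNA oligonucleotide that activates the endosomal receptor TLR9. The group labelled Dox received doxycycline, and the group labelled Comb received CpG1668 plus doxycycline. Spleens were taken 1 day after the final treatment, and GFP+ mCherry+ cells were sorted. One label gives a course of 6 daily treatments, another a course of 3 on alternate days. No group had doxycycline without the hairpin, so effects of the drug and of the hairpin cannot be told apart. No age, sex or number of mice is in the labels, nor whether each library was a separate mouse. The p-values therefore measure the spread between libraries.

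Interferon regulatory factors share a DNA-binding domain that recognises GAAA repeats, as in the interferon-stimulated response element (ISRE). IRF3, IRF5 and IRF7 wait in the cytoplasm and are activated by kinases downstream of nucleic acid sensors, after which they switch on interferon genes. IRF9 joins STAT proteins below the interferon receptor, IRF1 and IRF2 act on shared sites as activator and antagonist, and IRF4 and IRF8 bind with the ETS factor PU.1. In the bone marrow IRF8 steers progenitors toward monocytes and dendritic cells and away from neutrophils, and mice without it accumulate granulocytes.

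In the GENCODE M21 annotation (GRCm38) Irf8 lies at chr8:120736358-120756694, Irf5 at chr6:29526625-29541871, Irf1 at chr11:53770014-53778374 and Irf2 at chr8:46739732-46847458. Irf3 lies at chr7:44997648-45002848, Irf9 at chr14:55603571-55610030 and Irf4 at chr13:30749226-30766976, all on the plus strand, and Irf7 at chr7:141262706-141266481 on the minus strand.

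The sequences before the starts of Irf8, Irf5, Irf1 and Irf2 are shown because these are the 4 members called higher in Comb against PBS. The Irf2 call held in 2 of 14 alternative settings of the fit. Each is the 250 bases before the first RefSeq start listed (GRCm38.p6), on the plus strand. Irf8, Irf1 and Irf9 each have a second listed start, with a window of its own. The positions are chr8:120736108-120736357 for Irf8, chr6:29526375-29526624 for Irf5, chr11:53769764-53770013 for Irf1 and chr8:46739495-46739744 for Irf2. Capitals mark matches to the motifs searched.
Irf8: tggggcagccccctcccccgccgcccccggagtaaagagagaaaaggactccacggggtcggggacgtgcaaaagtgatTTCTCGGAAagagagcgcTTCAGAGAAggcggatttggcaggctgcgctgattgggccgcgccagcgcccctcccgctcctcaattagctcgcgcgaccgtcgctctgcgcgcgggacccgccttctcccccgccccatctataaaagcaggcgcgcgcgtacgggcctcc
Irf5: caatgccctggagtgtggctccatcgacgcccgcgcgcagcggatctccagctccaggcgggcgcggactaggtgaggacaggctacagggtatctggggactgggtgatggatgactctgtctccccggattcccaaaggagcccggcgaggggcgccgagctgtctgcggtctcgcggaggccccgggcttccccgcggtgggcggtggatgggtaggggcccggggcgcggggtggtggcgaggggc
Irf1: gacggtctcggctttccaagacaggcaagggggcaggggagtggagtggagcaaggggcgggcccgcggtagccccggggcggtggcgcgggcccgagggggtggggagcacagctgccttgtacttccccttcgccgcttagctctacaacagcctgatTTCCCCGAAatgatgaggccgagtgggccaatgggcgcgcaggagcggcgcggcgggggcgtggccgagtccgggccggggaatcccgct
Irf2: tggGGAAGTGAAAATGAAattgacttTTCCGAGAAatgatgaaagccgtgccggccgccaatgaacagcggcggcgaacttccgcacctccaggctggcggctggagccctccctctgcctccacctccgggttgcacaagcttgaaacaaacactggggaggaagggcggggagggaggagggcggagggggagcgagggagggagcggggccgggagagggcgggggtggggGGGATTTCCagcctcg
The search covered both strands of 11 RefSeq windows of 300 bases, from 250 before to 50 after a start, that matched the 8 genes. The GAS motif TTCNNNGAA, which STAT dimers such as those of STAT3 bind, occurred in 8.3% of 32851 promoters of that length. It matched the first Irf8 window at TTCTCGGAA and TTCAGAGAA, whose first bases lie at -171 and -153 from the start. The first Irf1 window held TTCCCCGAA at -90, and that of Irf2 held TTCCGAGAA at -224. The second windows of Irf8 and Irf1 had no match. The other 5 genes, Irf5 included, had no match to this motif in the window.

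Irf2 held 3 further motifs. GAAAATGAA matched the ISRE letters GAAANNGAA (8.56% of promoters) and overlapped GGAAGTGAA, a match to the ETS-IRF composite GGAANNGAA (8.24%). GGGATTTCC at -16 matched the NF-kappaB letters GGGANTTCC (1.68%). The PU.1 letters GAGGAAGT (3.2% of promoters) were in 0 of the 11 windows. The first Irf8 window held 38 CpG dinucleotides, more than 95% of promoters, and the second held 8, against a median of 7. Irf5 had 35, Irf1 32 and 43 in its 2 windows, and Irf2 19. A match describes letters, and binding was not measured.

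Depth, estimated from the steps of low values, was 30320000 to 34880000 reads per library, and 11945 to 12454 genes per library reached an RPKM (reads per kilobase, scaled to library size) of 1. The target of the hairpin was not lower where doxycycline was given. Stat3 was at 17.2 ± 0.576 RPKM (SD, n = 3) in PBS, 18.2 ± 0.483 in CpG1668, 18.9 ± 0.173 in the libraries labelled Dox and 19.4 ± 0.331 in those labelled Comb. It was called higher than PBS in Dox (log2 change 0.13, limma adjusted p = 0.044, and 0.051 with no filter on low values) and in Comb (0.16, adjusted p = 0.0068). Groups are therefore named as labelled. The libraries mixed progenitor, erythroid and myeloid transcripts: Kit was at 16.5 to 18.4 RPKM and Gata1 at 89.8 to 104 in group means. The progenitor gene Cd34 was near the floor, at 0.0404 in PBS and 0.395 in Comb. The leucocyte gene Ptprc was at 0.607 in PBS and 3.94 in Comb. Of myeloid genes, Mpo was at 2.26 in PBS and 86.9 in Comb, and Itgam at 0.873 and 12.2. These genes were chosen after their values were seen.

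RPKM is scaled to gene length, so the members can be ranked within a group, and Irf3 led in each. Mean RPKM in PBS was 13.1 ± 0.95 for Irf3, 7.63 ± 0.453 for Irf9, 7.61 ± 0.159 for Irf5 and 5.79 ± 0.0849 for Irf2. Irf1 followed at 2.77 ± 0.183, Irf7 at 2.54 ± 0.226, Irf8 at 0.376 ± 0.0802 and Irf4 at 0.0194 ± 0.00702. The ranges of Irf9 and Irf5 overlapped in PBS, as did those of Irf1 and Irf7, and the other neighbours in this order did not. In Comb, Irf3 (13.6 ± 0.158) and Irf5 (11.6 ± 0.246) led, and Irf8 had passed Irf7 in mean, 2.89 ± 0.614 against 2.28 ± 0.387 RPKM, with overlapping ranges. Irf8 made up 0.942% ± 0.178 of the members' summed RPKM in PBS, 3.69% ± 0.0884 in CpG1668, 2.58% ± 0.202 in Dox, with 5.91% ± 1.01 in Comb.

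**Figure D1:**
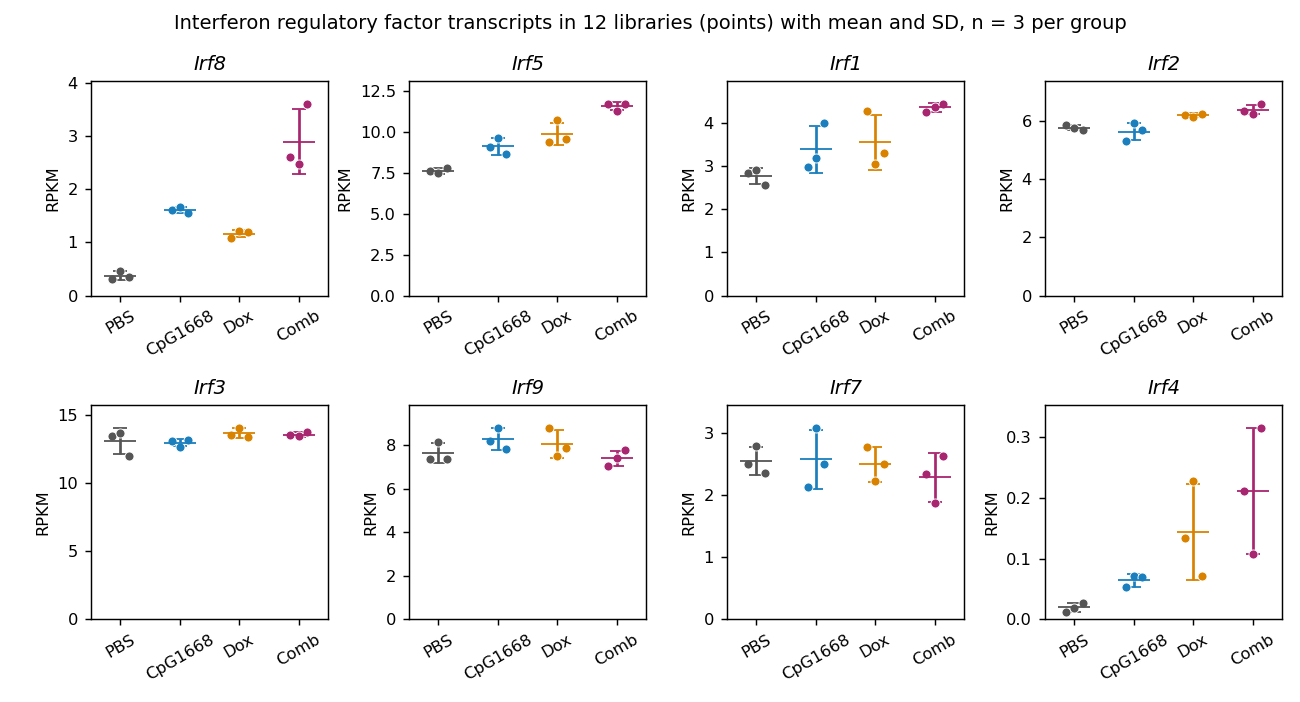
RPKM of the 8 interferon regulatory factors (vertical axes, linear and starting at 0, each panel on its own scale) in the 4 groups, with a point per library, a dash for the mean and bars for the SD (n = 3). Irf8 and Irf5 libraries of every treated group lie above all PBS libraries, Irf3, Irf7 and Irf9 of every treated group overlap PBS, and Irf4 stays under 0.4 RPKM.

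Irf8, the factor of monocyte and dendritic cell fate, differed most among the 7 members that passed the filter. Its PBS libraries had 0.308, 0.464 and 0.355 RPKM, about 35 to 51 reads each by the estimated depth. The CpG1668 libraries had 1.6, 1.67 and 1.56 RPKM, those labelled Dox 1.09, 1.21 and 1.20, and those labelled Comb 2.61, 2.48 and 3.6. The 4 groups did not overlap: each Comb library was above each CpG1668 library, each CpG1668 library above each Dox library, and each Dox library above each PBS library. As ratios of means to PBS, Irf8 was 4.29-fold higher in CpG1668, 3.1-fold in Dox and 7.7-fold in Comb.

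Irf8 passed the tests against PBS and those of Comb against either single treatment. Changes below are differences of log2(RPKM + 1) from limma with 95% intervals, and p-values are adjusted over the 12167 genes whose mean RPKM reached 1. The addition of 1 shrinks changes of low genes such as Irf8. It rose by 0.93 in CpG1668 against PBS (0.72 to 1.13, adjusted p = 2.2e-04), by 0.66 in Dox (0.45 to 0.86, adjusted p = 0.0032) and by 1.49 in Comb (1.28 to 1.70, adjusted p = 1.5e-06). Comb exceeded CpG1668 by 0.57 (0.36 to 0.77, adjusted p = 0.0096) and Dox by 0.84 (0.63 to 1.05, adjusted p = 5.6e-04). CpG1668 against Dox was not called (0.27, 0.06 to 0.48, adjusted p = 0.19). These comparisons share groups, PBS among them, and Irf8 passed the filter on low values through its treated libraries. With 0.1 added in place of 1, the rise over PBS was 1.86 in CpG1668, 1.42 in Dox, with 2.65 in Comb, and quantile normalization gave 0.62, 0.35 and 1.15, all called.

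Irf5, which carries signals from endosomal receptors to inflammatory genes, rose in the same comparisons with smaller changes. The PBS libraries had 7.59, 7.46 and 7.78 RPKM and the CpG1668 libraries 9.09, 9.61 and 8.62. Those labelled Dox had 9.38, 10.7 and 9.57, and those labelled Comb 11.7, 11.3 and 11.7. Every treated library was above every PBS library and every Comb library above every other, while CpG1668 and Dox overlapped. Against PBS, Irf5 was 1.2-fold higher in CpG1668 (log2 change 0.23, 0.12 to 0.34, adjusted p = 0.02), 1.3-fold in Dox (0.33, 0.23 to 0.44, adjusted p = 0.0035) and 1.52-fold in Comb (0.55, 0.44 to 0.66, adjusted p = 1.7e-05). Comb exceeded CpG1668 by 0.32 (adjusted p = 0.0073) and Dox by 0.21 (adjusted p = 0.037).

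The smaller Irf5 calls were lost without some single libraries, while the change stayed at 0.19 to 0.27 in CpG1668 against PBS and at 0.18 to 0.27 in Comb against Dox. In CpG1668 against PBS the adjusted p from limma was 0.059 without PBS 1, 0.079 without PBS 2, 0.06 without CpG1668 1 and 0.074 without CpG1668 2. In Comb against Dox it was 0.14 without Dox 1, 0.12 without Dox 3, and 0.14, 0.059 and 0.11 without Comb 1, 2 and 3. An exon stretch of 411 bases of Irf5 overlaps Tnpo3 on the opposite strand. Whether the counting used strand is not given in the sources used here, so reads of the 2 genes there cannot be told apart. Tnpo3 ran from 10.8 to 11.8 RPKM over all libraries.

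Irf1, an activator that interferon-gamma and cytokine signals induce, rose in Comb against PBS alone among the tests. PBS libraries had 2.85, 2.91 and 2.57 RPKM, CpG1668 libraries 2.97, 3.20 and 4.0, those labelled Dox 4.28, 3.05 and 3.31, and those labelled Comb 4.25, 4.38 and 4.44. All 9 treated libraries were above the 3 PBS libraries, CpG1668 and Dox overlapped, and Dox 1 reached the Comb range. The change was 0.51 in Comb against PBS (0.29 to 0.73, adjusted p = 0.0055), a 1.57-fold ratio of means. It was 0.21 in CpG1668 (-0.01 to 0.43, adjusted p = 0.26) and 0.26 in Dox (0.04 to 0.48, adjusted p = 0.17) against PBS, and neither passed.

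Irf2, the antagonist on IRF1 sites, showed a change at the edge of the threshold. PBS libraries had 5.88, 5.76 and 5.72 RPKM, CpG1668 libraries 5.33, 5.93 and 5.71, those labelled Dox 6.22, 6.14 and 6.27, and those labelled Comb 6.35, 6.27 and 6.60. The 6 libraries given doxycycline were above the 6 others. Comb against PBS gave 0.13 (0.04 to 0.21, adjusted p = 0.048), and the other contrasts were not called, among them Comb against CpG1668 (0.16, 0.07 to 0.24, adjusted p = 0.055). The Comb call was lost without any 1 of the 6 libraries compared, while the change stayed at 0.11 to 0.14, with an adjusted p of 0.074, 0.12 and 0.12 without PBS 1, 2 and 3 and of 0.093, 0.073 and 0.14 without Comb 1, 2 and 3. It was also lost with median-of-ratios scaling (0.12, adjusted p = 0.053) and quantile normalization (0.1, adjusted p = 0.099).

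Irf3, Irf7 and Irf9, the members closest to interferon production and response, passed in 0 of the 7 contrasts. Irf3, present before any stimulus in most cells, had 13.5, 13.7 and 12 RPKM in PBS, 13.1, 12.7 and 13.2 in CpG1668, 13.6, 14.1 and 13.4 in Dox, with 13.6, 13.5 and 13.8 in Comb. Its change in Comb against PBS was 0.06 (-0.04 to 0.16, adjusted p = 0.41). Irf7, itself an interferon-stimulated gene, had 2.49, 2.79 and 2.35 in PBS, 2.13, 3.08 and 2.49 in CpG1668, 2.77, 2.22 and 2.50 in Dox, with 2.34, 1.87 and 2.63 in Comb. Its change in Comb was -0.12 (-0.35 to 0.12, adjusted p = 0.52). Irf9 had 7.37, 8.15 and 7.36 in PBS, 8.19, 8.80 and 7.81 in CpG1668, 8.77, 7.52 and 7.86 in Dox, with 7.05, 7.39 and 7.76 in Comb, a change of -0.04 in Comb (-0.17 to 0.10, adjusted p = 0.73).

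Each treated group overlapped PBS for all 3, and the intervals bound the change rather than show equal levels. CpG1668 libraries lay below all Dox and Comb libraries for Irf3 and above all Comb libraries for Irf9 (Comb against CpG1668 -0.14, -0.28 to -0.01, adjusted p = 0.3), and neither passed. Neighbouring genes share exon bases with them, 88 for Irf3 with Bcl2l12 and 45 for Irf7 with Phrf1 on the opposite strand, and 123 for Irf9 with Rnf31 on the same strand.

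Irf4, the lymphoid relative of IRF8 that also binds with PU.1, lay below the filter. PBS libraries had 0.0125, 0.0191 and 0.0265 RPKM, about 1.9 to 3.9 reads. CpG1668 libraries had 0.0524, 0.0709 and 0.0698, those labelled Dox 0.134, 0.228 and 0.0711, and those labelled Comb 0.211, 0.108 and 0.316. All treated libraries were above all PBS libraries, and Dox overlapped Comb. The ratio of means to PBS was 7.45 in Dox and 10.9 in Comb, over a PBS level of a few reads. Fitted with all 33531 genes, Irf4 was called in Comb against PBS (0.25, 0.11 to 0.38, adjusted p = 0.041), where 7.83% of genes were called. It was not called in Dox (0.16, adjusted p = 0.29; 1.29% of genes) or in CpG1668 (0.06, adjusted p = 0.73; 1.86% of genes). The Comb call was lost without PBS 1, 2 or 3 (adjusted p = 0.11, 0.11 and 0.1), without Comb 1 (0.11) and without Comb 3 (0.11).

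Counted over the 7 members tested, the 2 called in CpG1668 against PBS and in Dox against PBS were Irf8 and Irf5. Of all genes, 5.88% and 5.98% were called in these contrasts. In Comb against PBS 4 members were called, all higher, where 15.5% of genes were called. Irf8 and Irf5 were also the 2 called in Comb against CpG1668 (3.26% of genes) and in Comb against Dox (3.48%). In CpG1668 against Dox limma called 0 members and 1.56% of genes, and 2 members, Irf8 and Irf2, had an unadjusted p under 0.05. The median change of the members was 0.1, 0.09 and 0.13 in CpG1668, Dox and Comb against PBS, and that of all genes -0.0143, 0.0144 and 0.00281. Irf8 entered the 7 through its treated libraries (PBS mean 0.376 RPKM), so these counts and medians are descriptions only.

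**Figure D2:**
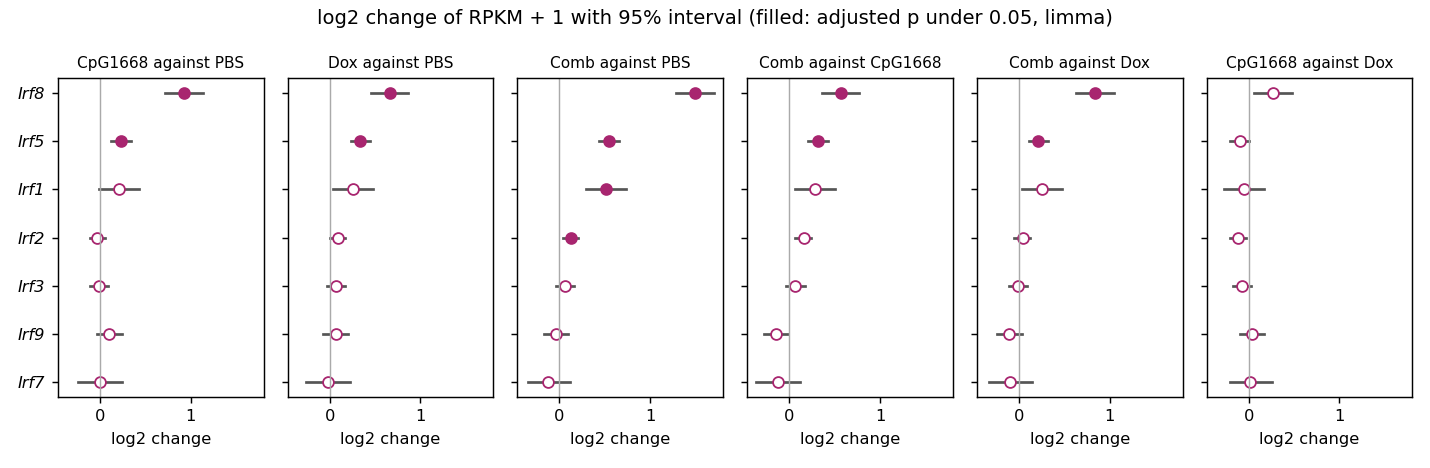
Change in log2(RPKM + 1) with its 95% interval (horizontal axes) of the 7 tested members in 6 contrasts, filled where the adjusted p was under 0.05 (limma). Irf8 and Irf5 are filled in all contrasts but CpG1668 against Dox, Irf1 and Irf2 in Comb against PBS, and Irf3, Irf7 and Irf9 in none.

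The combined treatment was compared with the 2 single ones through the interaction, which asks whether CpG1668 changed a member by another amount when doxycycline was given. Limma called 0 members and 0% of genes, with 812 genes and 1 member at an unadjusted p under 0.05. For Irf8 the interaction was -0.09 (-0.39 to 0.21, adjusted p = 0.98). Its Comb mean of 2.89 RPKM lay between the 2.4 that the 2 single differences add up to and the 4.99 that the 2 ratios multiply to. The value depends on the scale, at -0.63 (-1.12 to -0.15, adjusted p = 0.58) with 0.1 added and 0.18 (adjusted p = 0.8) after quantile normalization. For Irf5 the Comb mean of 11.6 stood beside a sum of 11.4 and a product of 11.8, and for Irf1 4.36 beside 4.16 and 4.33. The member with an unadjusted p under 0.05 was Irf9 (-0.21, -0.40 to -0.02, adjusted p = 0.73), whose mean was higher in each single treatment and lower in Comb than in PBS.

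Genes whose levels followed Irf8 most closely were sought among 9594 genes, by Pearson r of log2(RPKM + 1) over the 12 libraries. The 12 points fall into 4 groups, so r mostly records the order of the groups, and no p is given. The first 4, at r = 0.994, were Unc93b1 (the chaperone that carries TLR9 to endosomes), Kctd12, Tpm4 and Ighm (the mu heavy chain). Rab32, Ctsh, Tpd52, Ly86 and Card9 had 0.993 and Tifab 0.992. Unc93b1 went from 2.63 RPKM in PBS to 5.93 in CpG1668, 4.43 in Dox, with 9.05 in Comb. Tifab went from 0.551 to 4.05, 2.37 and 7.31 RPKM. Without the 3 Comb libraries, 2 of these 10 were again among the 10 closest, and with 0.1 added 7 were.

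**Figure D3:**
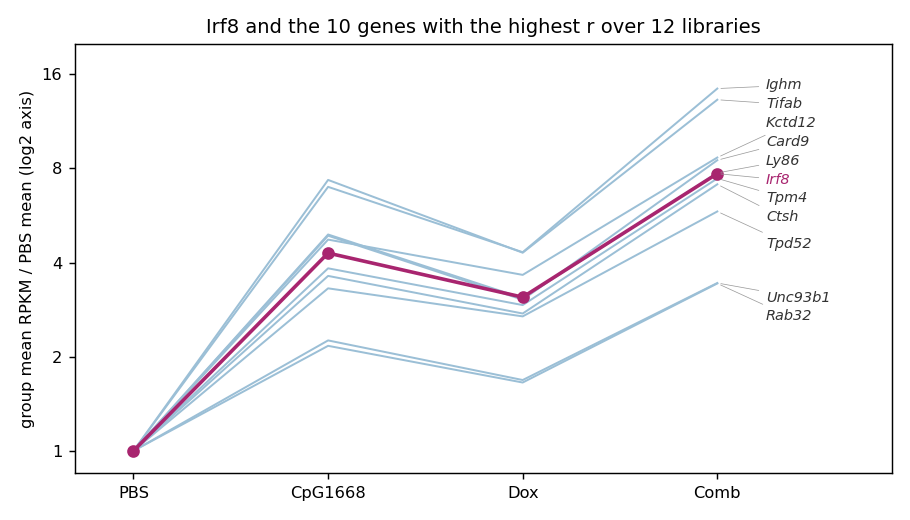
Group mean RPKM divided by the PBS mean (vertical axis, log2 scale) for Irf8, in purple with points, and for the 10 genes with the highest r, in blue, in the 4 groups (horizontal axis, unordered). In all 11 genes the CpG1668 mean lies above the Dox mean and the Comb mean is the highest.

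Among the other members, Irf5 lay closest to Ccl6 (r = 0.978), Lsp1 (0.977) and Cst3 (0.973). Irf1 lay closest to Rgs2 (0.956), Socs3 (0.937) and Txn1 (0.927), and Irf2 to Gpr108 (0.937), Rnasek (0.936) and Ptpn6 (0.923). The closest genes had r = 0.922 for Irf3 (Trir), 0.838 for Irf7 (Alox5) and 0.739 for Irf9 (Ldah). Between members, r was 0.901 for Irf5 with Irf8 and 0.644 for Irf7 with Irf9. Of deviations from group means, where the treatments are taken out, r was 0.244 for the first pair and 0.665 for the second.

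Counts in the lists below stand beside 5.88%, 5.98% and 15.5% of all genes called in CpG1668, Dox and Comb against PBS. The shares were 3.26% in Comb against CpG1668, 3.48% in Comb against Dox and 1.56% in CpG1668 against Dox. As for Irf8, some named genes were under 1 RPKM in PBS (Sting1, Trim30a, Cebpa and Klf4 among them) and passed the filter through treated libraries. Their lists' counts and medians are therefore descriptions only.

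Upstream of the factors, genes that carry nucleic acid signals to IRF proteins moved in few cases. Of 18 tested, 3 rose in CpG1668 against PBS (Sting1 by 1.17, Unc93b1 by 0.94 and Slc15a4 by 0.34) and 0 fell. In Dox, Sting1 (0.69), Unc93b1 (0.58) and the adaptor Mavs (0.28) rose. In Comb, Sting1 (1.65), Unc93b1 (1.46), Slc15a4 (0.52) and Myd88 (0.17) rose, with a list median of 0.05. SLC15A4 is an endolysosomal transporter needed for TLR7 and TLR9 signals to IRF5 and IRF7, and STING is the adaptor of cytosolic DNA sensing that leads to IRF3. Sting1 went from 0.229 ± 0.0678 RPKM in PBS to 1.76 ± 0.17 in CpG1668, 0.984 ± 0.149 in Dox, with 2.89 ± 0.812 in Comb. Tlr9 itself was below the filter, at 0.0991 ± 0.0617, 0.326 ± 0.036, 0.196 ± 0.0345 and 0.445 ± 0.0799 RPKM in PBS, CpG1668, Dox and Comb. Fitted with all genes, it was called against PBS in CpG1668 (0.27, adjusted p = 0.033) and Comb (0.39, adjusted p = 0.0015) but not in Dox (0.12, adjusted p = 0.35), and in Comb against Dox (0.27, adjusted p = 0.03).

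Interferon genes, among them targets of IRF3 and IRF7, were near the floor where they had values. Of 21 listed, 11 were in the files, and the highest value in any library was 0.0837 RPKM. Ifnb1 and Ifna4 were among those without values. On the receptor route to IRF9, 5 of 12 genes rose in Comb against PBS, 2 in CpG1668 and 2 in Dox, and 0 fell. Ifngr1, the ligand-binding chain of the interferon-gamma receptor, had the largest change and rose by 1.27, 1.08 and 2.17 in CpG1668, Dox and Comb. It went from 1.98 ± 0.317 RPKM in PBS to 12.5 ± 2.03 in Comb. Ifngr2 (0.36), Ifnar2 (0.24), Stat2 (0.24) and Stat3 (0.16) also rose in Comb.

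Interferon-stimulated genes, the targets of IRF9 and its STAT partners, moved in both directions. Of 19 tested, 3 rose and 0 fell in CpG1668, 2 rose and 2 fell in Dox, and 4 rose and 3 fell in Comb against PBS. The antiviral genes Isg15 and Rsad2 fell in Dox (by 1.64, adjusted p = 0.021, and by 2.24, adjusted p = 0.011) and in Comb (by 1.80, adjusted p = 0.0056, and by 2.25, adjusted p = 0.0039). With no filter on low values, both Dox calls were lost: 0 genes of the list were called lower in Dox, and 2 in Comb. Of the 30 genes in the files, 5, 4 and 8 were then called higher in CpG1668, Dox and Comb. Of all genes, 1.86%, 1.29% and 7.83% were called without the filter in either direction. Isg15 ran from 58.5 to 86.3 RPKM in PBS, 25.5 to 45.8 in CpG1668, 12.8 to 38.9 in Dox and 14.4 to 25.5 in Comb. In CpG1668 it was not called (-0.84, adjusted p = 0.21). Eif2ak2 also fell in Comb (-0.29). Ifi27l2a rose by 1.48, 1.16 and 1.95 in CpG1668, Dox and Comb, and Trim30a by 1.01, 0.75 and 1.43. Psmb8 (0.30) and Stat2 (0.24) rose in Comb.

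Among factors that bind DNA with IRF proteins, Spi1 (PU.1) rose in Comb against PBS alone of the 3 contrasts (0.38, adjusted p = 0.0014), from 18.2 ± 1.2 to 24.0 ± 1.46 RPKM. Cebpa, a myeloid factor whose protein binds IRF8, rose by 1.00, 0.74 and 1.55 in CpG1668, Dox and Comb, and Stat2 by 0.24 in CpG1668 and in Comb. In all, 2, 1 and 3 of 11 rose and 0 fell. Of 3 further family genes tested, the cofactor Irf2bp2 rose in Comb (0.22, adjusted p = 0.045).

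Genes described as IRF8 targets in myeloid cells changed mostly upward. Of 12 tested, 7 rose and 1 fell in CpG1668, 5 rose and 1 fell in Dox, and 8 rose and 1 fell in Comb against PBS, with medians of 0.17, 0.19 and 0.38. Against CpG1668 and against Dox, 7 were higher in Comb. Klf4, a monocyte factor downstream of IRF8, went from 0.393 ± 0.032 RPKM in PBS to 2.17 ± 0.197 in CpG1668, 1.48 ± 0.144 in Dox, with 4.64 ± 0.355 in Comb. It rose by 1.19, 0.83 and 2.02 and was also higher in CpG1668 than in Dox (0.36, adjusted p = 0.03). Ctss, an endosomal protease, rose by 1.55, 1.23 and 2.43, and Cybb, the catalytic subunit of the phagocyte oxidase, by 1.64, 1.65 and 2.88.

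The gene that fell was Bcl2l1, which encodes the survival protein BCL-XL and is described as repressed by IRF8. It fell by 0.32, 0.51 and 0.59. Asah1, an enzyme of ceramide breakdown also described as repressed, rose by 0.16 in CpG1668 and 0.39 in Comb. The list thus holds described activation and repression targets. Lists share some genes, such as Klf4 with the monocyte list and Stat2 with 3 of the lists.

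Genes of both fates that IRF8 decides between rose. Of 11 monocyte fate genes tested, 9, 9 and 11 rose in CpG1668, Dox and Comb against PBS (medians 1.17, 0.72 and 1.63), among them F13a1, Ms4a6c, Fcgr1 and Klf4. Of 13 neutrophil fate genes, 8, 13 and 13 rose (medians 1.11, 2.06 and 2.92), among them Ngp, S100a9 and Csf3r. Comb exceeded CpG1668 in 13 neutrophil and 8 monocyte fate genes, and Dox in 1 neutrophil gene (Cebpe) and 8 monocyte genes. In CpG1668 against Dox, 4 monocyte genes were higher and 0 neutrophil genes were called in either direction. Without the filter on low values the neutrophil count was 0 in CpG1668 against PBS and 1 in Comb against CpG1668. In bulk RNA, more or fewer cells of a type and more or less RNA per cell cannot be told apart.

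**Figure D4:**
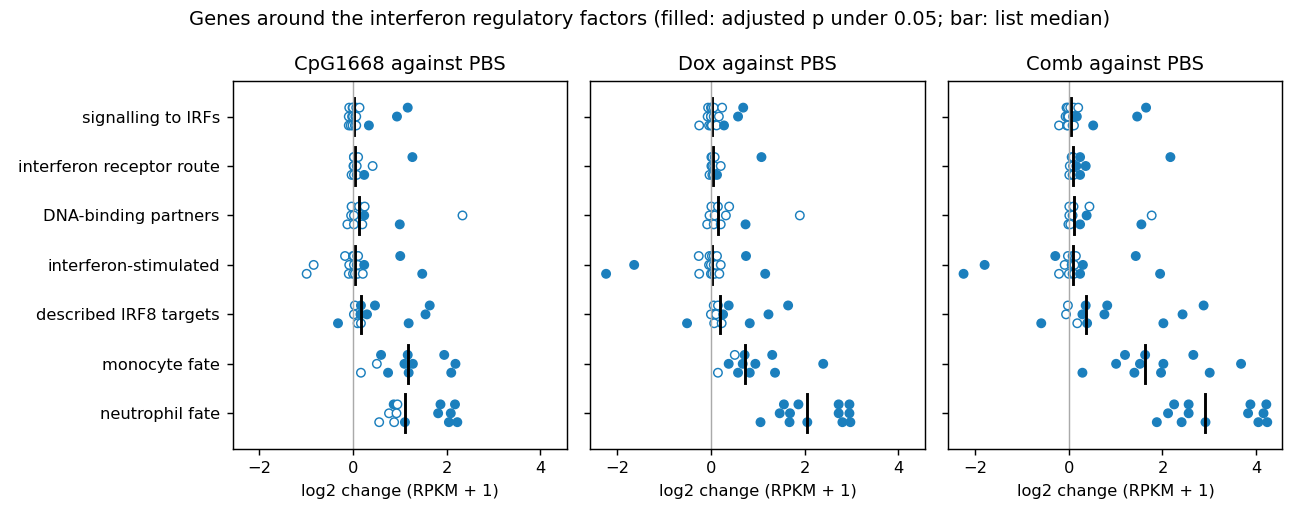
Change in log2(RPKM + 1) against PBS (horizontal axes) of genes in 7 lists around the interferon regulatory factors, a point per tested gene, filled where the adjusted p was under 0.05 (limma), with a bar at the list median. The medians of the signalling, receptor, partner and interferon-stimulated lists lie within 0.15 of 0, and those of the monocyte and neutrophil fate lists at 0.72 to 2.92.

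The cells were sorted as GFP+ mCherry+, a gate meant to remove host cells. Markers of other cell types were summed per library. Late neutrophil markers (12 of 12 in the files) ran from 104 to 210 RPKM in PBS, 604 to 794 in CpG1668, 552 to 2250 in Dox and 1640 to 4300 in Comb, and erythroid markers (11 of 11) from 14500 to 19400, 6070 to 10400, 3200 to 7520 and 3340 to 5950. Spleen macrophage markers (14 of 14) ran from 18.8 to 32.7, 28.1 to 41.2, 28.7 to 35.3 and 33.3 to 53.0. Comb 3 had the highest sums of neutrophil and macrophage markers and the highest Irf8 and Irf4. Without Comb 3 the Irf8 change was 1.37 over PBS (adjusted p = 1.6e-06) and 0.44 over CpG1668 (adjusted p = 0.021), and the 2 Comb libraries left had neutrophil sums of 2900 and 1640. Within the libraries labelled Dox the neutrophil sum was 552, 1260 and 2250 while Irf8 was 1.09, 1.21 and 1.20. The part of these cells in the Irf8 and Irf5 changes was not tested.

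Dendritic and B cells are known for abundant IRF8 and IRF4. Plasmacytoid dendritic cell markers (9 of 9) summed to 27.8 to 31.2 RPKM in PBS and 32.0 to 35 in Comb, nearly all of it Bst2, and the defining gene Siglech reached 0.136. Conventional dendritic cell markers (10 of 10) summed to 2.28 to 3.93 over all libraries, and Xcr1 and Clec9a reached 0.211 and 0.13. Of that list, Itgax was at 0.478 in PBS and 1.13 in Comb, Flt3 at 0.109 and 0.315, and Batf3 at 0.0654 and 0.261. B and plasma cell markers (12 of 12) summed to 7.53 to 7.96 in PBS and 12.5 to 15.5 in Comb, mostly Sdc1 and Ighm. Cd79b was at 0.16 RPKM in PBS and 0.809 in Comb and Cd79a at 0.188 and 0.355, while Ms4a1 and Pax5 reached 0.00954 and 0.00669. T and NK cell markers (10 of 10) summed to 11.5 to 16.6 in PBS and 12.8 to 23.1 in Comb, nearly all of it Nkg7 (means 14.1 and 16.6). Stromal and endothelial markers (8 of 8) summed to 1.88 to 2.09 in PBS and 3.17 to 3.5 in Comb. Most of that sum was Kdr (means 1.5 in PBS and 1.32 in Comb) and Pecam1 (0.362 and 1.83). In each of the 8 lists 0 markers were at 0 in all libraries. Under 0.1 RPKM in all libraries were 7 B and plasma cell markers and 7 T and NK cell markers. So were 5 stromal and endothelial and 3 plasmacytoid dendritic cell markers, and 0 in the other lists.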

How the data were processed

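The authors deposited RPKM values (reads per kilobase of gene, scaled to library size) for 33531 gene symbols in each of 12 libraries. Per the submitters' processing notes, STAR 2.7.9, Partek 7.18.0723 and the mm10 build were used. Neither their roles nor the annotation or settings could be taken from the sources used here. Positions came from GENCODE M21 (96.6% of symbols matched) and sequences from RefSeq.

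The filter kept 12167 genes whose RPKM averaged 1 or more across libraries. Values were transformed to log2(RPKM + 1) and fitted with limma 3.58.1 (R 4.3.3): 4 group means, an intensity trend, 7 contrasts, Benjamini-Hochberg adjustment over all genes of a contrast, calls at an adjusted p under 0.05. Estimated depth is the size at which 72.6% to 74.2% of 4851 to 5189 low single-transcript genes lay within 0.05 of a whole read. The fit was tested on simulated data. Alternatives were another pseudocount (0.1), filter (none, or 5) and scaling (median of ratios, quantile), no trend, a replicate block, fits limited to the contrasted groups, and dropping each library in turn. Text names the members, Stat3, Tlr9, called list genes (up to 4 per direction where more than 5), the closest genes by r (10 for Irf8, 3 for others) and neighbours on the annotation. The members and lists were chosen with earlier results of these data known. Groups came from titles. A comparison of member proteins was not made. Some genes that the naming rule took are left out.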

Additional observations from a re-analysis of the deposited data

How the results depend on the processing

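Irf8 kept its 5 calls under the 13 alternatives run for each. Irf1 in Comb against PBS was called in 13 of 13 (0.45 to 0.63). A filter at a mean RPKM of 5, which leaves out Irf1, Irf7 and Irf8, left 1 member called in each of the 5 contrasts with calls. In Comb against Dox 1 was called with no filter, with only the groups compared and with the replicate block. Leaving out 1 library gave 1 to 2 members in CpG1668 against PBS and in Comb against Dox, and 3 in Comb against PBS. Irf4 without the filter, in Comb against PBS, was 0.22 (adjusted p = 0.055) with quantile normalization and 0.25 with the replicate block (0.097) and with only the groups compared (0.14), settings added after the data were seen. Left-out libraries gave 0.18 to 0.31. With no filter, 11 list genes were called in Comb against CpG1668 in place of 33, and 2 in CpG1668 against Dox in place of 5. With the filter, 3.26% and 1.56% of all genes were called in these contrasts, and the shares without it are not given here.

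The titles number libraries 1 to 3 in each group. Deviations from group means correlated at -0.207 to 0.268 between same-numbered libraries (18 pairs) and at -0.376 to 0.324 between others (36 pairs). The labels do not say what same-numbered libraries share, and these correlations cannot exclude that they share something. The block changed 3 calls: that of Irf4, that of Irf2 in Comb against PBS (0.13, adjusted p = 0.082) and that of Irf5 in Comb against Dox (0.21, adjusted p = 0.067).

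Changes of sign occurred in values that were not called. Median-of-ratios scaling and quantile normalization each gave 0.01 for Irf3 in CpG1668 against PBS, quantile -0.02 for Irf7 there and 0.18 for the Irf8 interaction, and median-of-ratios 0 for Irf3 in Comb against Dox. Left-out libraries gave ranges across 0 in CpG1668 against PBS for Irf2 (-0.06 to 0.01), Irf3 (-0.06 to 0.03) and Irf7 (-0.1 to 0.09), and in Dox against PBS for Irf7 (-0.08 to 0.04). They did so in Comb for Irf9 against PBS (-0.07 to 0.01) and Irf3 against Dox (-0.02 to 0.01), and in CpG1668 against Dox for Irf1 (-0.15 to 0.06), Irf7 (-0.08 to 0.11) and Irf9 (-0.01 to 0.09). For the interaction these were Irf1 (-0.04 to 0.15), Irf3 (-0.03 to 0.06), Irf5 (-0.05 to 0.04) and Irf7 (-0.19 to 0). Quantile normalization moved the share of calls that were higher from 65.9% to 51.5% in Dox against PBS, 58.8% to 42.1% in Comb against PBS, 94% to 82.3% in Comb against CpG1668 and 22.6% to 35.3% in CpG1668 against Dox. Low reads limit Irf4 and, in PBS, Irf8.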
